A study of Mus musculus with 2 samples.

Results

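Open promoters with few CpG dinucleotides were examined in the midbrain of mouse embryos. A peak of DNase I cutting was counted as one of them when it met 4 conditions. It was a replicate 2 peak that overlapped a replicate 1 peak by 1 bp or more, and it lay on an autosome. Its centre was within 1000 bp of the start of a protein-coding transcript whose surrounding 2000 bp held 20 CpG or fewer. No start with more CpG lay within 1000 bp of that centre. The choice used the presence of a peak in both replicates and the CpG content of the genome (mm10), with no threshold on the height of the peak. Needing a peak in both replicates still favours the higher peaks of replicate 1, which has the longer list. It gave 702 peaks of the 171429 peaks shared by both replicates and of the 29821 shared autosomal peaks near a protein-coding start. The other 29119 promoter peaks had a start of more CpG nearby, and 137542 shared autosomal peaks lay at no protein-coding start. The nearest CpG-poor starts belonged to 538 genes.

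DNase-seq reads out the places where chromatin is open enough for the enzyme DNase I to cut it. Most mammalian promoters sit in CpG islands, stretches that escape DNA methylation and tend to be open in many tissues whether or not the gene is strongly used. Promoters with few CpG are usually methylated and closed, serve genes of specialised cells, and are opened by the factors of those cells. Some of them carry a TATA box, the site that positions the transcription machinery a short way upstream of the start.

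The series has 1 group: midbrain tissue of B6NCrl embryos of mixed sex at embryonic day 14.5, in 2 biological replicates. There is no control group and no treatment. The replicates are listed as separate biosamples that share 1 donor entry, and whether their spread is more than technical is not known. Replicate 1 has 710176 peaks and replicate 2 has 267958, each called on its own, and the read depth behind them is unknown. Of 12 midbrain marker genes, among them En1 and Otx2, 12 had a shared promoter peak. Markers of other cells had one at 4 of 5 endothelial, 3 of 5 myeloid, 1 of 6 erythroid, 3 of 5 mesenchymal, 2 of 5 skeletal muscle and 1 of 5 liver genes. Since CpG-rich promoters are often open whether or not the gene is used, these counts do not show which cells were present. None of the 12 midbrain markers had only CpG-poor starts.

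The following stretches show the sequence of these promoters. The first 4 are the 100 bases upstream of a start that has TATAAA 20 to 40 bp before it and a CpG-poor promoter peak within 150 bp, in the direction of the gene, with TATAAA in capitals. They belong to Vip (chr10:5639118-5639217, strand +), which encodes the neuropeptide VIP, to Ccl7 (chr11:82045612-82045711, strand +), a chemokine gene, to a second start of Il33 (chr19:29945690-29945789, strand +), which encodes an alarm cytokine of the nucleus, and to Krtap2-4 (chr11:99614847-99614946, strand −), a keratin-associated protein gene. TATAAA began 30 bp upstream of the start at Vip and at Ccl7, 29 bp at Il33 and 27 bp at Krtap2-4.
Vip: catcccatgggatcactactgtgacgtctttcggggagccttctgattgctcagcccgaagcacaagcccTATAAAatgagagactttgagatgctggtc
Ccl7: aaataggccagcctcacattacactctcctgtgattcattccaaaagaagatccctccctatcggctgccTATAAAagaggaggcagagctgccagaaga
Il33: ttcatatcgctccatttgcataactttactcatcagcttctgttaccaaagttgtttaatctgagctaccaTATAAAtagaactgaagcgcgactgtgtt
Krtap2-4: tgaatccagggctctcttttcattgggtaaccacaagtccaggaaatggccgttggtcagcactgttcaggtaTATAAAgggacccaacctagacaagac

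The next 5 are the 150 bases of a whole peak, again in the direction of the gene. Each holds a short word that was far more or far less common here than in other promoter peaks, and that word is in capitals. Each was the highest ranked peak with its word among those that overlap no annotated untranslated region and were not already taken for another word, so higher ranked peaks such as that of Fgd4 also hold some of these words. Oxr1 (chr15:41830756-41830905, strand +), a gene of resistance to oxidative damage, holds the SOX word ACAAAG, and Gzmk (chr13:113225956-113226105, strand −), a granzyme protease gene, the NFI word TTGGCA. Tmprss5 (chr9:49081696-49081845, strand +), a membrane serine protease gene, holds the E-box CAGATG known for neurogenic bHLH factors. Pde1b (chr15:103514196-103514345, strand +), a calmodulin-dependent phosphodiesterase gene, holds the GC box GGGCGG, and Plekha5 (chr6:140515656-140515805, strand +) the ETS word CCGGAAG, both of which were rare in these peaks.
Oxr1: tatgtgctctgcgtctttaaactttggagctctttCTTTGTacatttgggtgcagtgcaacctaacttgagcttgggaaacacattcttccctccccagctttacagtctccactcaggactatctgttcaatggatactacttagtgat
Gzmk: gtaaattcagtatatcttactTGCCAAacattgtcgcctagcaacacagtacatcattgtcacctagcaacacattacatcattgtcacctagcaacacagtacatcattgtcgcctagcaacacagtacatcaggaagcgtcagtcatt
Tmprss5: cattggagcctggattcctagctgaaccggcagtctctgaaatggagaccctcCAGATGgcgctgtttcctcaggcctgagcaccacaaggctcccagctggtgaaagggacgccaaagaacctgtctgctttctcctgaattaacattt
Pde1b: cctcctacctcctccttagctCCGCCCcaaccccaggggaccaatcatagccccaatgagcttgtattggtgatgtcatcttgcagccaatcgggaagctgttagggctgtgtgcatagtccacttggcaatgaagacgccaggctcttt
Plekha5: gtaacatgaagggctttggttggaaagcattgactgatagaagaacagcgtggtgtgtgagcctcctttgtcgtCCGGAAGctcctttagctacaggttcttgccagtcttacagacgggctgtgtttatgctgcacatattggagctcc

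The 150 bases at Oxr1 hold 1 CpG, those at Gzmk, Tmprss5 and Pde1b hold 3 each, and those at Plekha5 hold 4. Outside the capitals, the Pde1b peak holds the word CCAAT, known for the factor NF-Y, 4 times over both strands. That was the most in any of the 702 peaks. The Gzmk peak holds CCTAGCAAC 4 times, in a short tandem repeat, which no other peak at a CpG-poor promoter did. This word was picked after the sequence was seen, and 12 of the 702 peaks hold it at least once. All sequences are those of the GRCm38.p6 reference assembly from RefSeq.

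Few genes with CpG-poor starts were open. Of the 20698 autosomal protein-coding genes, 3987 had CpG-poor starts and no others, and 225 of them (5.64%, 95% exact binomial interval 4.95 to 6.41) had such a peak within 1000 bp of a start. The share climbed with every step of CpG content in the window of the gene's richest start. It was 5 of 343 genes (1.46%) with 0 to 5 CpG, 34 of 1467 (2.32%) with 6 to 10, 77 of 1258 (6.12%) with 11 to 15 and 110 of 919 (12%) with 16 to 20 when any shared peak was counted. Above the limit it was 35.0% with 21 to 40 CpG, 87.8% with 41 to 80 and 98.4% with more than 80. Each of these intervals was apart from the next, except between 0 to 5 CpG (0.475 to 3.37%) and 6 to 10 CpG (1.61 to 3.22%). The intervals here and below cover counting error only, and genes and peaks are not replicates of the tissue.

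**Figure D1:**
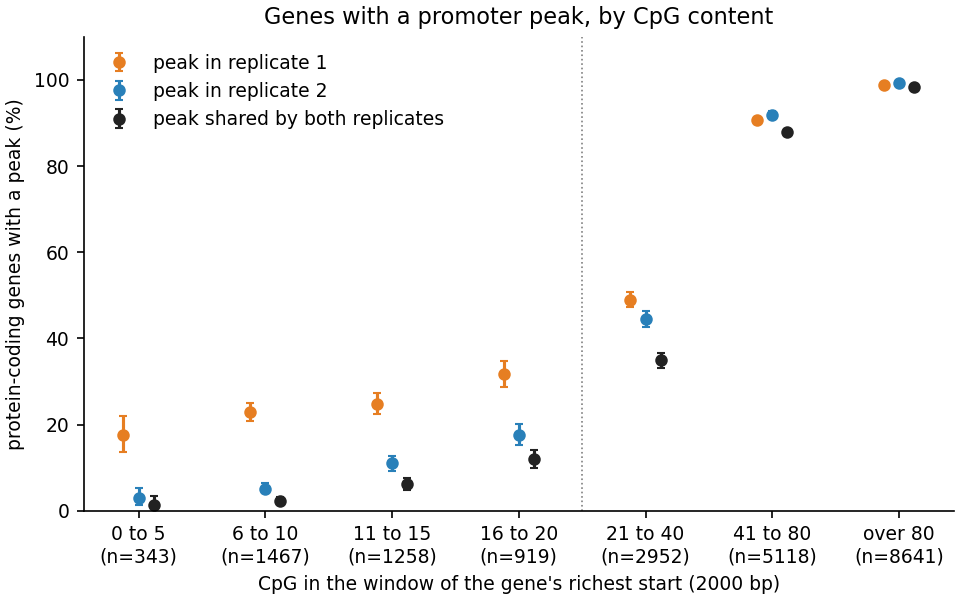
Share of autosomal protein-coding genes (%) with a peak whose centre is within 1000 bp of a start, by the CpG count of the gene's richest start, in replicate 1, in replicate 2 and shared by both. Bars are 95% exact binomial intervals and the dotted line marks the limit of 20 CpG. In all 3 series the share was lowest on the left, and highest on the right, going from 1.46% to 98.4% for shared peaks.

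How many such genes counted as open depended on the replicate. Replicate 1 alone had a peak near a start of 25.1% of the 3987 genes and replicate 2 alone of 9.66%. Applying the rule to 1 replicate gave 3716 peaks from replicate 1 and 1179 from replicate 2 in place of the 702. The climb with CpG content was present in each replicate on its own. From 0 to 5 CpG up to 16 to 20 CpG, the share went from 17.5% to 31.7% in replicate 1 and from 2.92% to 17.6% in replicate 2.

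The 702 peaks fell into 2 kinds of genes. The 3987 genes with CpG-poor starts alone accounted for 272 peaks (38.7%), of which 71.7% had the 5′ end of the gene as their nearest start. The other 430 peaks lay at genes that also have a CpG-richer start elsewhere, and there the 5′ end was the nearest start in 12.6%. The nearest start of these 430 peaks was thus mostly not the annotated 5′ end, which was counted only at the exact base. Over all 702 peaks the nearest start was the 5′ end in 35.5%, against 40.2% of all CpG-poor starts. That share was not computed for the CpG-poor starts of genes with both kinds. Of the 2597 genes with both kinds of start, 319 (12.3%) had such a peak at a CpG-poor start. In the first kind 40.8% of centres lay outside protein-coding genes and 32.0% in introns, and in the second 8.84% lay outside and 73.5% in introns. Over all 702 peaks, 403 centres were in introns (57.4%), 149 outside protein-coding genes (21.2%), 115 in untranslated exons (16.4%) and 35 in coding exons (4.99%). Other promoter peaks were in introns in 38.0%. A CpG-richer start lay more than 1000 and up to 2000 bp from the centre of 43 of the 702.

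Most genes had a single peak of this kind (422 of 538), 84 had 2, and 32 had 3 or more. Atf7ip, which encodes a partner of a histone H3 lysine 9 methyltransferase, had the most with 7, whose deposited values ran from 16 to 88 in replicate 1 and from 67 to 134 in replicate 2. Myt1, a zinc finger gene of developing neurons, had 6, with 11 to 71 in replicate 1 and 41 to 119 in replicate 2. Mast2, Rasal2 and Tcf12 had 5 each. Peaks of replicate 2 could overlap one another: 44 of the 702 overlapped another one, and the 702 covered 680 separate stretches. Each of the 4 peaks at Tmed11 overlapped another of them. The peaks were spread over all 19 autosomes, with 15 to 72 on each.

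The deposited value of a peak is a whole number of at most 150 for an interval of 150 bp. What it counts is not given in the sources used here, so values were read within a replicate, also as a percentile rank among all peaks of that replicate. At CpG-poor promoters the values in replicate 1 ran from 3 to 108 with a median of 16 and quartiles of 11 and 30. In replicate 2 they ran from 15 to 145 with a median of 58 and quartiles of 40 and 83. Other promoter peaks had medians of 44 and 110. Peaks away from promoters had medians of 18 and 60, close to those at CpG-poor promoters.

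In percentile ranks, the median CpG-poor promoter peak stood at 83.9 in replicate 1 and 58.1 in replicate 2. The high rank in replicate 1 is in part set by the choice of shared peaks, as the median value of all replicate 1 peaks was 6. The median of other promoter peaks was 95.3 and 89.9, which puts the CpG-poor ones lower by 11.3 points in replicate 1 and by 31.7 points in replicate 2. The direction was thus the same in both replicates, whose lists differ in length. Within the promoters, the median value went up with CpG content in both replicates: 24 and 74 with 21 to 40 CpG, 45 and 109 with 41 to 80, and 49 and 116 with more than 80. Below the limit the order was similar, with medians of 12 and 38.5 for the 104 peaks with 0 to 10 CpG, 17 and 60 for the 202 with 11 to 15, and 18 and 61 for the 396 with 16 to 20. The last 2 of these groups lay within 1 unit of each other in both replicates.

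**Figure D2:**
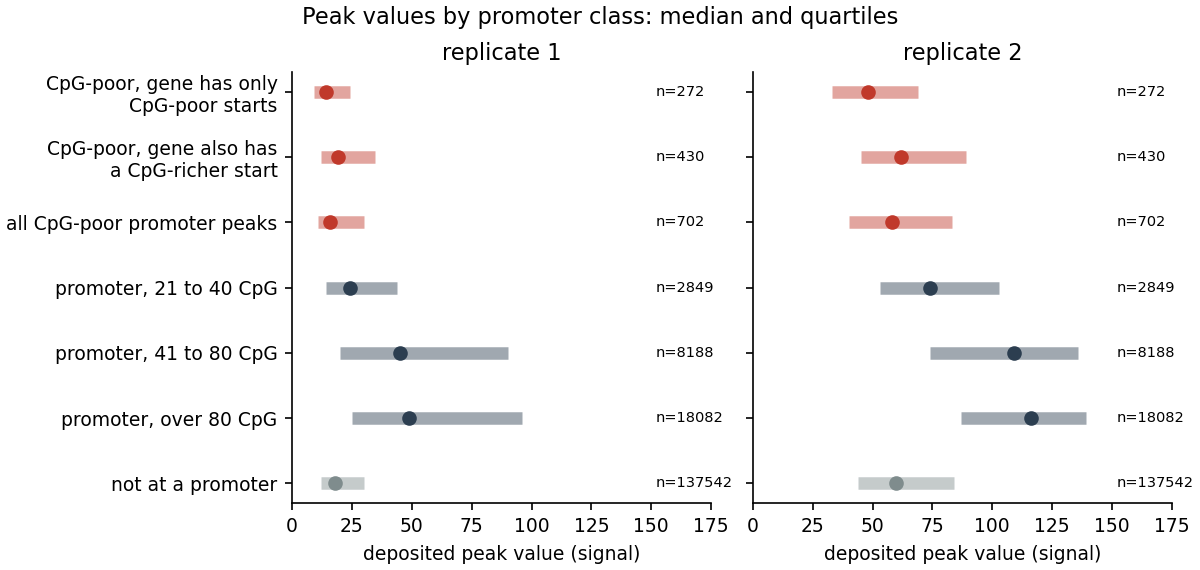
Deposited peak value (signal) in each replicate for CpG-poor promoter peaks (red), other promoter peaks by CpG content (dark) and peaks at no promoter (grey), where points are medians and bars run from the lower to the upper quartile over peaks. The medians of all CpG-poor promoter peaks, 16 and 58, sit beside those of peaks at no promoter, 18 and 60, and below those of every CpG-richer promoter class.

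Values near the start and farther from it were closer to each other here than at other promoters. Peaks at CpG-poor promoters centred within 150 bp of the start (n = 267) had medians of 18 and 61, and those farther away (n = 435) had 16 and 56. At other promoters the same split gave 84 and 134 within 150 bp and 27 and 88 beyond it. Peaks of genes with CpG-poor starts alone were lower, with medians of 14 and 48, than those of genes that also have a CpG-richer start, with 19 and 62. The quartiles of these 2 kinds overlapped in both replicates.

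The widths of the enclosing hotspots, the broader regions of enriched cutting that were deposited beside the peaks, followed the same order. The median hotspot around a CpG-poor promoter peak was 290 bp wide in replicate 1 and 325 bp in replicate 2. Around other promoter peaks it was 898 and 1630 bp, and around peaks at no promoter 315 and 353 bp. The −log10 q value of the hotspot reached the highest value in the files, 100, for 44.3% of the CpG-poor promoter peaks in replicate 1 and 56.7% in replicate 2, against 74.7% and 92.9% of other promoter peaks.

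Although low as a group, these peaks included some of high rank. In replicate 1, 230 of the 702 (32.8%) were in the top 10% of all peaks of that replicate, and in replicate 2 it was 69 (9.83%). These shares were close to those of peaks at no promoter, 32.9% and 8.07%, and below those of other promoter peaks, 70.9% and 49.4%. Each of these classes needed a peak in both replicates, which favours high ranks in replicate 1. All 69 were in the top 10% of both. The values of the 2 replicates ordered the 702 peaks alike (Spearman's rho 0.876 over peaks, which are not independent), close to peaks at no promoter (0.867) and below other promoter peaks (0.962). One peak stood apart from that order, the second of 2 overlapping peaks at Gm17482 with 64 in replicate 1 and 51 in replicate 2. It overlapped 2 replicate 1 peaks, of which the higher was taken, and the one that overlapped it most had 18. Such a choice was made at 20 of the 702 peaks, and the median in replicate 1 was 16 with either choice.

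**Figure D3:**
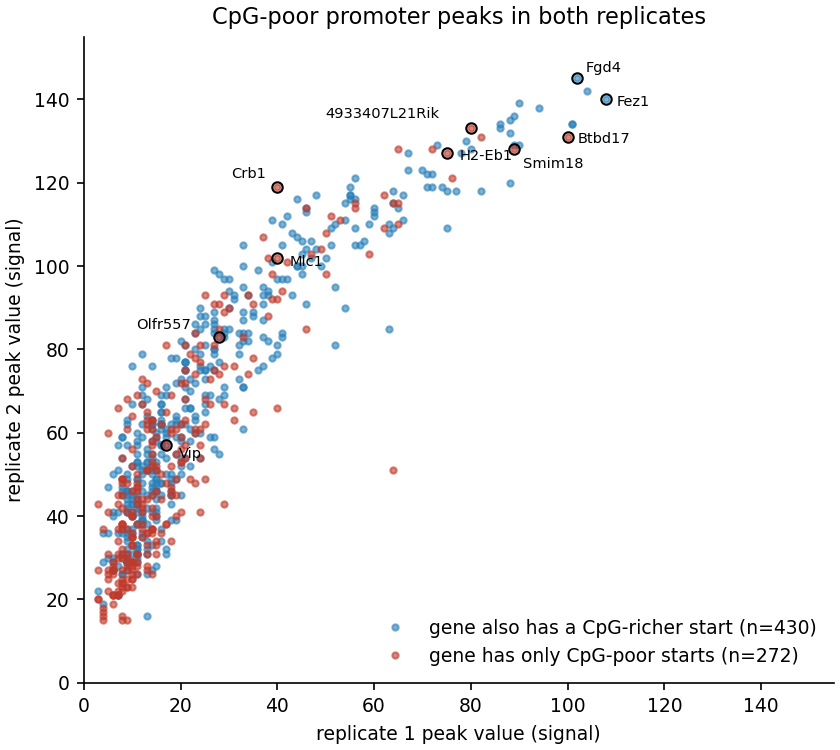
Deposited peak value (signal) of each of the 702 CpG-poor promoter peaks in replicate 1 (horizontal) and replicate 2 (vertical), coloured by whether the gene also has a CpG-richer start (n = 430) or not (n = 272), with 10 genes circled and named. The points follow 1 curved band that flattens towards the top, and Fgd4 at 102 and 145 and Fez1 at 108 and 140 lie at its upper end.

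The strongest peak was at an internal start of Fgd4, an activator of the small GTPase CDC42, with 102 in replicate 1 and 145 in replicate 2, centred 52 bp upstream of the start. Oxr1 followed with 104 and 142. Fez1, which encodes an adaptor of axonal transport, had 108 and 140 at the 5′ end of the gene, 13 bp from the start. The Pde1b peak shown above had 90 and 139, 649 bp upstream of an internal start.

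Further strong peaks were at genes of varied function. Fcho1, an endocytosis gene, had 94 and 138, and Cpeb3, which controls mRNA translation at synapses, had 86 and 133. Cbx5, which encodes the heterochromatin protein HP1 alpha, had 101 and 134. The Atf7ip peak with the highest rank had 86 and 134. Nfyc, a subunit of the CCAAT-binding factor NF-Y, also had 101 and 134, at an internal start. Lix1, a gene named for its expression in limb and nervous system, had 89 and 136 at its 5′ end. Cntnap2, an adhesion gene of axons, had 80 and 128 at an internal start. The others of the 20 leading genes were Zfand6, Btbd17, Il18, 4933407L21Rik, Btbd8, Fam110b, Csrnp3, Smim18 and Ankrd17, with values between 73 and 100 in replicate 1 and between 128 and 135 in replicate 2. Of these 20 genes, only Btbd17, 4933407L21Rik and Smim18 have CpG-poor starts and no others.

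Among the genes with CpG-poor starts alone, the leading peak was that of Btbd17 with 100 and 131, inside the gene 466 bp downstream of its start. The further genes named here were taken from the top of that order after its values were seen. 4933407L21Rik had 80 and 133, 8 bp from its start, and Smim18, a small membrane protein gene, had 89 and 128, 1 bp from its start. H2-Eb1, which encodes a class II antigen-presenting chain, had 75 and 127 at 76 bp upstream. Gpr22, an orphan receptor gene, had 65 and 128 in an untranslated exon. Crb1, an apical polarity gene of neuroepithelium and retina, had 40 and 119 at 11 bp from its start. Npff, which encodes neuropeptide FF, had 65 and 110 at 670 bp upstream. Rd3, a photoreceptor gene, had 62 and 117 at 1 bp from its start.

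Median values just inside the CpG limit were lower than those just outside it in both replicates. The 87 promoter peaks whose richest start holds exactly 20 CpG had medians of 18 and 61, led by Fez1, Pde1b, Cbx5, Btbd17 and Cpeb3. The 105 with 21 CpG, just outside, had medians of 23 and 68, led by Fam111a with 98 and 137 and Ttyh1 with 103 and 131. At the far end, Cntn3, a contactin of axons, had 11 and 53 with 3 CpG in its window, and 4931408C20Rik had 11 and 50 with 2.

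Gene families differed in how many of their CpG-poor genes were open, and these counts are read against the 5.64% of all 3987 genes. Olfactory receptors, the odorant receptors of the nose, made up 1018 of the 3987, and 31 of them (3.05%, 2.08 to 4.29) had such a peak. In replicate 1 alone 282 of the 1018 had a peak, and in replicate 2 alone 61. The 40 peaks assigned to olfactory receptor genes were low, with a median of 9 and a range of 3 to 35 in replicate 1 and a median of 31 and a range of 15 to 83 in replicate 2. Olfr557 had the highest rank with 28 and 83, and Olfr556, its neighbour, had 35 and 78. Of the vomeronasal receptors, the pheromone receptors, 5 of 321 had a peak, and of the taste receptors 0 of 35. Without these chemosensory genes, 189 of 2611 genes with CpG-poor starts alone (7.24%) were open.

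Other large families of specialised tissues were near or below that background. Among defensins 1 of 53 genes had a peak, among keratins and their associated proteins 1 of 41, among cytochrome P450 and glucuronosyltransferase genes 5 of 73 and among serpins 3 of 36. Cyp4f16, a fatty acid hydroxylase gene, had 51 and 112 and stood highest of these, with 42 in place of 51 at the replicate 1 peak that overlapped it most. Interleukin, chemokine and receptor genes had peaks at 5 of 45 (11.1%, 3.71 to 24.1): Ccl2, Ccl7, Il21, Il25 and Il33. The Il33 peak with the highest rank had 29 and 89 and the Ccl2 peak had 28 and 74, while Ccl7, whose TATA box is shown above, had 7 and 34.

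Interferon-induced and guanylate-binding genes, which serve antiviral defence inside cells, were open at 7 of 32 (21.9%, with a lower 95% exact bound of 9.28%). They were Ifi44l, Mx1 and 5 Gbp genes, but Gbp4 and Gbp8 counted only through a peak that was nearer to the start of another gene, so 5 of the 7 had a peak assigned to them. The interval treats all 7 as separate genes and would lie lower with 5. Ifi44l had 38 and 102, Mx1 had 14 and 61, and Gbp6 had 18 and 52. The Gbp genes lie in clusters of near-identical copies, and their reads may be split between copies, so their peaks are uncertain.

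**Figure D4:**
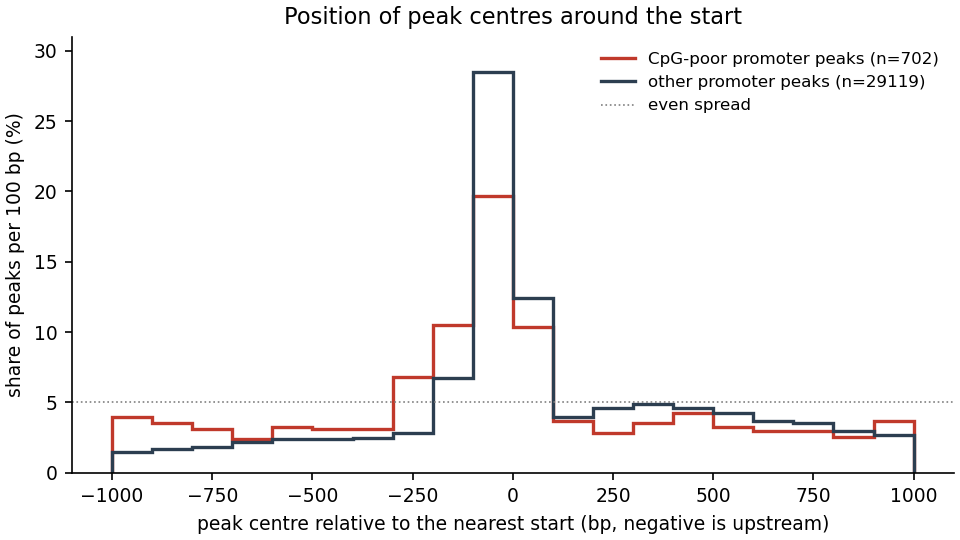
Share of peaks (%) in each 100 bp by the position of the peak centre relative to the nearest start (bp, along the gene, negative is upstream) for CpG-poor and other promoter peaks, where the dotted line is an even spread over 2000 bp. Both classes are highest in the 100 bp upstream of the start, at 19.7% and 28.5%. The CpG-poor class has the larger share in every bin from 1000 to 100 bp upstream.

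Lists of neural and glial genes had few members with CpG-poor starts alone. The lists of pan-neuronal genes, of neural progenitor genes, of transmitter synthesis and of homeobox families held none. Of 5 such glial genes, Mlc1, Ermn, S100b and Agt were open and the myelin gene Mog was not. Mlc1, a membrane protein gene of astrocytes, had 40 and 102, 24 bp from its start, and Ermn, a cytoskeletal gene of oligodendrocytes, had 46 and 85. S100b, a calcium-binding protein gene of astrocytes, had 12 and 43 at 242 bp upstream of its start. Agt, the angiotensin precursor gene, had 11 and 28 at 435 bp downstream of its start. Of 5 cadherin and protocadherin genes, 4 were open: Cdh19 with 13 and 31 at its highest peak, and Pcdhb9, Pcdhb16 and Pcdhb21 of the clustered protocadherins, which are near copies of one another. Ion channel genes were open at 4 of 10 (Ano3, Kcna10, Scn7a and Trpm5). The anoctamin gene Ano3 had 50 and 108 at 652 bp downstream of its start. Neurod4, a bHLH gene of neuronal differentiation, had 15 and 70, 11 bp from its start. Of the 9 neuropeptide and hormone genes on the list, Vip alone was open, with 17 and 57. Nts, Iapp and Prl were among the 8 that were not. The list leaves out Npff, named above, so Vip was not the only open neuropeptide gene. These lists are short and were chosen with results of these data known.

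Some neural genes that also have a CpG-richer start had such peaks at their CpG-poor starts, and the counts are read against the 12.3% of all such genes. Map2, a dendritic microtubule gene, had 20 and 52 at an internal start. Lhx2 and Pou2f1 had one among 8 homeobox genes, with 29 and 83 at Lhx2 and 77 and 118 at Pou2f1. Cadherin, protocadherin, contactin and neurexin genes had one at 7 of 18, and pan-neuronal genes, Map2 among them, at 2 of 8. Synaptotagmin, complexin and SNARE genes had one at 2 of 6 and ion channel genes at 3 of 31. Solute carriers had one at 10 of 39, Zfp zinc finger genes at 5 of 88 and transmitter receptors at 2 of 19. None of 4 glial and 4 transmitter synthesis genes had one. Chrna4, a nicotinic receptor subunit gene, had 29 and 84 at 65 bp upstream of its start. After the values were seen, Snrpn and Mest, which are imprinted genes, were also singled out: Snrpn had 3 peaks with 63 and 108 at the highest, and Mest had 78 and 127 at 956 bp upstream of a start.

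Markers of non-neural cells were read the same way. Of 7 mesenchyme and meninges genes with CpG-poor starts alone, the matrix genes Postn (31 and 63), Ogn (14 and 53) and Dcn (15 and 51) were open. Of 15 liver genes Ttr, a transthyretin gene that the choroid plexus also expresses, was open, with 13 and 51. Its peak lay in an intron, 931 bp downstream of the start. Of 16 digestive gland genes 4 were open, among them the pepsinogen gene Pga5 with 62 and 109 at 600 bp upstream of its start. Of 6 myeloid genes Cd74 was open, with 14 and 58. None of the 9 erythroid, 7 lymphoid, 5 testis and germline and 3 endothelial genes on the lists was open. The 95% exact upper bounds were 33.6%, 41%, 52.2% and 70.8%. These lists do not hold every gene of such cells, so the counts cover only the genes listed. In tissue, few cells with an open site and a weakly open site in many cells cannot be told apart.

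Peak centres gathered at the start, though less tightly than at other promoters. Within 150 bp of the start lay 267 of the 702 centres (38.0%, 34.4 to 41.7), where an even spread would give 15%. Other promoter peaks had 47.6% there. The centres lay upstream of the start in 59.7% (56.0 to 63.3), against 52.4% (51.8 to 53.0) of other promoter peaks. The median centre was 43 bp upstream (−43) at CpG-poor promoters and 7 bp upstream (−7) at other ones. In the 100 bp just upstream stood 19.7% of the centres, and a further 10.5% and 6.84% stood in the 2 bins of 100 bp above it. Other promoters had 28.5%, 6.71% and 2.80% in the same bins. From 300 to 1 bp upstream the 2 classes were close, at 37.0% and 38.0%.

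The bases under the peaks resembled those of peaks away from promoters. The median GC content of the 150 bp was 48.7%, against 49.3% at no promoter and 62.7% at other promoters. A peak held a median of 1 CpG, and 161 of 702 (22.9%) held none, against 13.5% of peaks at no promoter. CpG content was part of the choice, so the gap to other promoters is a description. Repeats filled 50% or more of the peak in 37 of 702 (5.27%, 3.74 to 7.19), against 3.01% of peaks at no promoter and 1.66% of other promoter peaks.

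Short words known for families of transcription factors were counted on both strands in the same 150 bp. Words that contain CpG were rare, as the choice forces: GGGCGG, known for Sp factors, was in 4.27% of CpG-poor and 39.7% of other promoter peaks, and CCGGAAG, known for ETS factors, in 0.570% and 7.40%. GCGCATGCG, known for NRF1, was in 0 of 702 (95% exact upper bound 0.524%) and in 1.44% of other promoter peaks. CCAAT was in 22.4% (19.3 to 25.6) of CpG-poor, 20.5% of other promoter and 19.2% of the remaining peaks. Within 150 bp of a start it was in 28.5% at CpG-poor and 25.8% at other promoters. Peaks with 2 or more CCAAT were less frequent at CpG-poor promoters, 2.85% (1.75 to 4.37) against 5.14% (4.89 to 5.40) at other promoters.

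Many of the words without CpG were more frequent than at other promoters, both words known for factors of developing neural tissue and others. ACAAAG, known for SOX factors, was in 134 of 702 peaks (19.1%, 16.2 to 22.2), against 8.21% of other promoter peaks and 15.6% of peaks at no promoter. TTGGCA, an NFI word, was in 15.2%, 6.34% and 13.1% of these classes. GGATTA, known for OTX factors, was in 8.55%, 2.69% and 6.87%, and CAGATG in 13.8%, 6.76% and 15.4%. CAGCTG, known for ASCL factors, was in 15%, 9.74% and 15.2%, and TAATTA, a homeodomain word, in 4.42%, 1.09% and 5.78%. TGANTCA, known for the FOS and JUN factors, was in 6.41%, 2.37% and 5.08%. GGAATG, known for TEAD factors, was in 11.3%, 5.72% and 9.13%, and AGGTCA, a nuclear receptor word, in 7.12%, 4.50% and 6.47%. AGATAAG, known for GATA factors, was in 2.28%, 0.697% and 1.72%. TATAAA anywhere in the peak was in 6.41%, 2.47% and 6.33%. Other words without CpG were less frequent than at other promoters: CCACCC, known for KLF factors, was in 10.4%, 18.7% and 10.4%, and AGGGGGC, a part of the CTCF site, in 3.99%, 9.57% and 5.08%. For each of these words the share at CpG-poor promoters was nearer to that of peaks at no promoter than to that of other promoters. This did not hold for every word without CpG among the 27 searched. A part of the REST site was in 5.41%, 4.39% and 3.66% of the same classes, and a word known for YY1 in 1.57%, 1.66% and 0.939%. The word known for NF-Y was in 22.4%, 20.5% and 19.2%. In these cases the share was nearer to that of other promoters. GC content moves with these shares, and its part in them was not tested. A word of this length also occurs by chance, and a match is a description, not a binding site. CAGCTG and CAGATG are separate words, but a stretch can hold more than 1 of the 27 words searched.

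**Figure D5:**
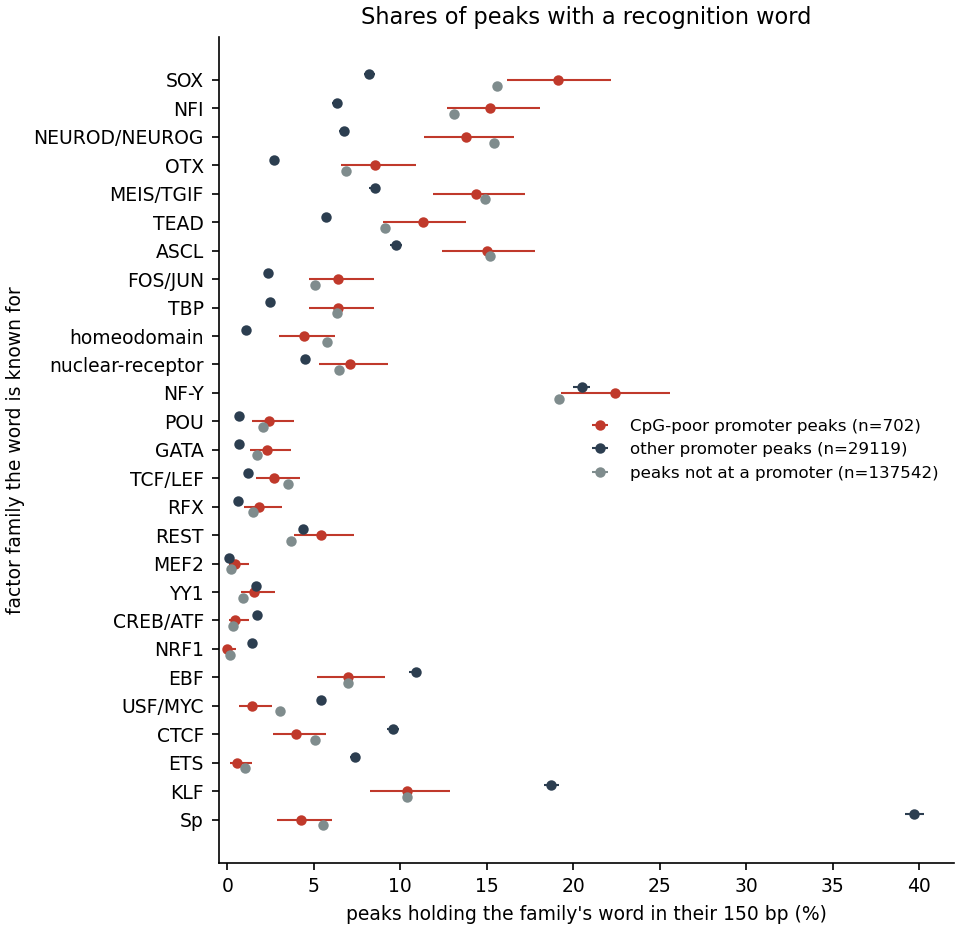
Share of peaks (%) whose 150 bp hold the word known for each of 27 factor families, for CpG-poor promoter peaks, other promoter peaks and peaks at no promoter, with 95% exact binomial intervals. SOX stands at 19.1%, 8.21% and 15.6% in that order at the top, and Sp at 4.27%, 39.7% and 5.54% at the bottom.

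Strong and weak peaks of this class differed little in most words. Between the 176 peaks of highest rank and the 177 of lowest rank, ACAAAG was in 37 and 27 and CCAAT in 48 and 41. GTTGCCATG, known for RFX factors, was in 8 and 2, and CAGCACC, a part of the REST site, in 15 and 4. CAGCTG was in 29 and 16. Some words went the other way, among them TATAAA in 6 and 15 and ATGCAAAT, known for POU factors, in 3 and 9. The words from GTTGCCATG on were picked out of the 27 after their values were seen.

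TATAAA at 20 to 40 bp upstream was not common at the open CpG-poor starts. Of the 538 starts nearest to the highest peak of each gene, 11 had it (2.04%, 1.02 to 3.63). They were those of Homez, Cdon, Vip, Hhla1, Gm11541, Agt, Ccl7, D730001G18Rik, Prl6a1, Krtap2-4 and Lor. In genes with CpG-poor starts alone and no shared peak, the first start had it in 246 of 3761 (6.54%, 5.77 to 7.38), and without chemosensory genes in 213 of 2421 (8.80%). Here and below, closed means only that a gene has no shared peak. Some of these genes have a peak in 1 replicate, as replicate 1 had one at 25.1% of the 3987 genes. In open genes with CpG-richer starts alone it was 125 of 11888 (1.05%, 0.876 to 1.25). Many open starts were internal, while the closed and richer genes were read at their first start. At the 111 open starts that are the 5′ end of the gene and have a centre within 150 bp, 5 had TATAAA (4.50%, 1.48 to 10.2), and this interval includes the 6.54% of closed genes. By rank, the 11 peaks ran from 7 and 21 at Lor to 33 and 89 at Homez. Those of Homez and Cdon were in the top 10% of replicate 1, and none was in the top 10% of replicate 2.

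CCAAT at 40 to 120 bp upstream, its usual place in promoters, was counted after these results were seen. It was at 82 of the 538 open starts (15.2%, 12.3 to 18.6), at 18.1% (16.9 to 19.4) of closed CpG-poor genes and at 19.2% (18.5 to 19.9) of open CpG-richer genes. At the 252 open starts with a centre within 150 bp it was at 49 (19.4%, 14.7 to 24.9).

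Open CpG-poor genes had more open chromatin around them than closed ones. Within 50 kb of the first start, the 225 open genes had a median of 4 shared peaks at no promoter (quartiles 2 and 7), and the 3761 genes with no shared peak had a median of 1 (quartiles 0 and 3). No such peak was found around 12% (8.06 to 17.0) of the open and 46.0% (44.4 to 47.6) of the closed genes. Without the chemosensory genes the medians were 5 for 189 genes and 2 for 2421. An open start with more than 80 CpG lay within 50 kb of 22.2% (17.0 to 28.2) of the open and 9.76% (8.83 to 10.8) of the closed genes. The median distance to such a start was 138110 bp for open and 345114 bp for closed genes. Without the chemosensory genes the gaps were smaller: the shares were 24.9% and 14.0% and the median distances 114325 and 237230 bp.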

How the data were processed

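DNase-seq peaks and hotspots of 2 biological replicates of embryonic midbrain were used, grouped by the labels. The authors deposited a peak list and a hotspot list for each replicate, on mm10 per the labels, so calls were made per replicate. The deposited peak value (unit signal, whole numbers up to 150) is unscaled between replicates. The deposited hotspot lists give a −log10 q value that ends at 100. Aligner, caller and settings: not given in the sources used here. Read depth is unknown too, so no count interval per peak is possible.

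Starts of protein-coding transcripts came from GENCODE M21 and sequence from GRCm38.p6 (RefSeq). To check the build, 26585 start codons of the annotation were read, of which 99.92% were ATG, and no autosomal peak ran past a chromosome end. CpG were counted in 1000 bp either side of each start; 11 CpG-poor windows hold unknown bases. A peak went to the gene of its nearest CpG-poor start and took the highest overlapping replicate 1 value. Shares have 95% exact binomial (Clopper-Pearson) intervals, and with 1 group no test between groups was made. The peaks, the 38 gene lists and the 27 words were chosen with earlier results of these data known. Named genes are the 20 with the highest mean percentile rank over both replicates, the top 3 of each list, those beside the CpG limit and those with 3 CpG or fewer. Genes said to be chosen after their values were seen are additions, as are the word repeated at Gzmk and the upstream CCAAT count. Alternatives were another overlap, distance, CpG limit, transcript set, peak threshold, hotspots, a wider word window and each replicate alone. Tables were handled with pandas 2.3.3 and numpy 2.4.6 in Python 3.11.15, intervals with scipy 1.17.1 and plots with matplotlib 3.10.9, and the calculations were tested on simulated data.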

Additional observations from a re-analysis of the deposited data

How the results depend on the processing

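The number of CpG-poor promoter peaks, 702, became 104 with a limit of 10 CpG, 2027 with a limit of 30, 329 with gene 5′ ends in place of all transcripts and 412 with replicate 2 values at or above the median of its list. Either replicate alone gave 1179 to 3716. The share of genes with CpG-poor starts alone that were open, 5.64%, became 4.41% with centres within 500 bp, 2.15% and 11.7% with limits of 10 and 30 CpG, 2.71% with the higher value threshold, and 9.58% to 25% with either replicate alone. The difference in median rank from other promoter peaks was negative under every alternative run. It went from −11.3 to −47.8 points for replicate 1 peaks taken without replicate 2, to −17.4 with a limit of 10 CpG and to −4.92 with the higher threshold, and from −31.7 for replicate 2 to −61.8 with a limit of 10 CpG, −17.0 with the higher threshold and −45.4 with replicate 2 peaks alone. The share of centres within 150 bp, 38.0%, became 55.8% with centres within 500 bp, 44.2% with a limit of 10 CpG, 44.1% with gene 5′ ends, and 34.7% and 21% with replicate 2 and replicate 1 alone. TATAAA, at 2.04% of starts, became 4.22% with gene 5′ ends and 6.51% when 3 variants of the word were added. A 300 bp window in place of 150 bp gave higher shares for most words, since it is longer. Leaving out centres beyond 500 bp by itself raises the share within 150 bp, and added variants of TATAAA cannot lower its share. The cause of the other shifts was not tested. Read depth is unknown, so a site without a peak may be open below detection.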
